A study of Mus musculus with 10 samples.

Results

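The comparison described here set 3 metastatic lines with knockdown of Trp53 against the primary line with the same knockdown, 4 of the 10 RNA-seq libraries in a study of esophageal squamous cell carcinoma in the mouse. This cancer arises from the stratified lining of the esophagus. All 4 lines carry the genotype Trp53R172H/-, in which 1 allele encodes mutant p53 and the other is lost, and a short hairpin RNA against Trp53 (shTrp53). The primary line, named 18shRNA, is labelled as esophagus, and the metastatic lines, numbered 384, 386 and 387, as lung metastasis of esophageal squamous cell carcinoma. The metastatic lines were grown out of dissociated lungs at week 8, expanded in culture and sorted for the fluorescent protein YFP. The strain is given as a mixed background for all of them, and no animal age is given. The members were chosen by their sample titles, and the 6 lines with a control hairpin were used only to check the level of Trp53.

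The primary group is 1 line and 1 library. A difference between sites can therefore not be told apart from a difference between this line and the other 3, and no label says whether lines 384, 386 and 387 came from separate mice. Each gene was described by whether the primary value lay outside the range of the 3 metastatic lines and by the log2 ratio of each line to the primary line. A gene is called set apart below where the primary value lay outside that range and even the nearest metastatic line was at least 2-fold away. The edgeR quasi-likelihood test takes its spread from the 3 metastatic lines, drawn toward that of other genes, and assumes that the primary line would vary like them. The words rose, fell and changed are kept for genes past its threshold, a Benjamini-Hochberg adjusted p under 0.05. Levels are CPM, read counts relative to sequencing depth, scaled over the 4 libraries, and metastatic values are given in the order of lines 384, 386 and 387.

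Carcinoma cells that leave the primary site pass through the circulation and settle in a tissue with other nutrients, matrix and oxygen. Squamous carcinoma cells keep much of the program of the basal layer, with keratins, p63 and Sox2, and many carcinomas can shift between epithelial states rich in junction proteins and mesenchymal states rich in vimentin. Tumor cells also tune stress programs: the ATF4 program, which supplies amino acids when translation is stressed, the SREBP program, which makes sterols and fatty acids, and the NRF2 program, which detoxifies oxidants.

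Total counts were 11057049 in the primary library and 14055576, 15917672 and 18431216 in lines 384, 386 and 387. The basal squamous markers Krt14 and Trp63 were found in every library. Krt14, the keratin of basal cells, stood at 6932 CPM in the primary line and 5176, 3842 and 5759 CPM in the metastatic lines. Trp63, the master regulator of basal squamous cells, stood at 141 CPM in the primary line and 45.8, 63.1 and 57.2 CPM in the metastatic lines. Of 14 measured basal squamous genes, 6 fell in the metastatic lines (42.9%, against 7.88% of all genes), Trp63 and Krt5 among them. In the same list 1 rose (7.14%, against 8.39% of all genes). The libraries differed in genes of the Y chromosome: Ddx3y, Eif2s3y and Uty had 124, 162 and 60 counts in the primary library and 0 in each of the 3 metastatic libraries. Loss of Y in the metastatic lines and their descent from cells other than the sequenced primary line cannot be told apart here, and no label names the line they descend from. Every ratio to the primary line may therefore hold a difference of origin. Markers of other cell types were few: 4 of 10 fibroblast, 3 of 12 immune, 3 of 9 endothelial and 3 of 12 lung epithelial markers were in the table. The summed fibroblast markers, nearly all Fbln1, stood at 26.1 CPM in the primary line and 17.0, 3.21 and 17.9 CPM in lines 384, 386 and 387. Col1a1, the chain of the main fibroblast collagen, had 12 counts in the primary library and 3, 1 and 1 in the metastatic libraries, and Dcn, decorin, had 0 in the primary library and 66, 6 and 67 in these. Fbln1, fibulin 1, had 301 counts in the primary library and 145, 26 and 212 in these, and Pdgfra, a growth factor receptor of fibroblasts, at 0.807 CPM against 1.32, 1.05 and 1.99 CPM. The summed endothelial markers stood at 22.2 CPM against 8.42, 11.3 and 13.9 CPM, and the summed immune markers, nearly all Cd68, at 93.6 CPM against 150.6, 134.6 and 138.8 CPM. The summed lung epithelial markers, Hopx, Aqp5 and Lamp3, stood at 39.1 CPM in the primary line and 16.1, 40.2 and 10.8 CPM in lines 384, 386 and 387.

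The primary line lay well apart from the metastatic lines, which resembled each other more. Between the primary line and lines 384, 386 and 387, 23.6%, 24.7% and 21.9% of the 11712 genes tested were at least 2-fold apart. Between metastatic lines the shares were 4.26% for 384 and 387, 8.33% for 386 and 387 and 9.31% for 384 and 386. Lines 384 and 387 were thus the closest pair. The primary value lay below all 3 metastatic lines for 4388 genes (37.5%) and above all 3 for 4593 genes (39.2%), together 76.7% of genes. Set apart were 666 genes that were higher in the metastatic lines (5.69%) and 849 that were lower (7.25%).

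In the edgeR test 983 genes rose (8.39%) and 923 fell (7.88%) in the metastatic lines, and 461 of those that rose (3.94% of all genes) and 580 of those that fell (4.95%) were also set apart. These counts depend on single lines: without line 384, 441 rose and 427 fell, without line 386, 1617 rose and 1454 fell, and without line 387, 143 rose and 134 fell. Of the genes called with all lines, 138 that rose and 121 that fell were called the same way in all 3 of these fits. Scaling to total counts moved the median log2 ratio of all genes by -0.22 and changed the split to 605 higher and 1560 lower, so the number of genes on each side is relative to the scaling. Upper-quartile scaling gave 761 higher and 1172 lower. Set-apart counts grew when a line was left out, to 763 to 889 genes higher and 1047 to 1107 lower. The rule uses the nearest line, so fewer lines relax it, and this growth is no measure of stability. An edgeR fit without 1 line takes its spread from the lines that remain, with 1 residual degree of freedom. A gene that misses the threshold in such a fit need not have another log2 fold change. The fits without lines 384, 386 and 387 tested 11709, 11780 and 11734 genes. Counts of list members from these fits are to be read against the counts over all genes given above.

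**Figure D1:**
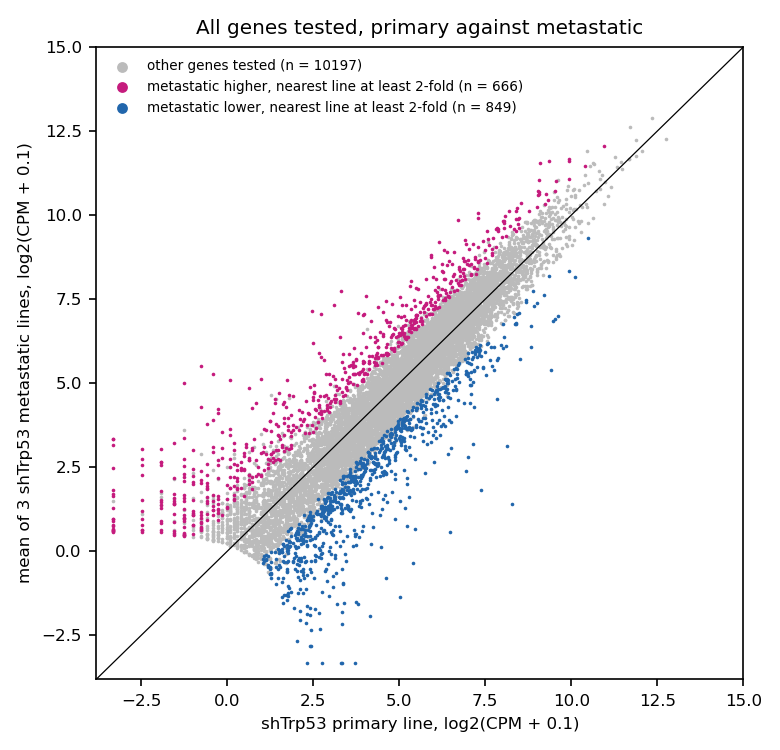
Each point is 1 of 11712 genes, with the log2(CPM + 0.1) of the shTrp53 primary line on the x axis and that of the mean of the 3 shTrp53 metastatic lines on the y axis; the line marks equal levels. Pink points are the 666 genes set apart with higher and blue points the 849 with lower metastatic levels.

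Trp53, the target of the hairpin, was low in all 4 lines. It stood at 6.54 CPM in the primary line and 5.27, 7.41 and 5.56 CPM in the metastatic lines, and the primary value lay within the range of the other 3 (log2 fold change -0.10, SE 0.38, adjusted p = 0.869). In the 6 lines with a control hairpin it stood between 73.7 and 131 CPM, scaled over all 10 libraries. Birc5, which encodes survivin, an inhibitor of apoptosis and member of the chromosomal passenger complex, stood at 272 CPM in the primary line and 130.2, 78.7 and 142 CPM in the metastatic lines. Every metastatic line was below the primary line, but Birc5 missed the threshold (log2 fold change -1.22, SE 0.32, adjusted p = 0.0547). It passed in 6 of 12 alternatives: without line 386 (log2 fold change -0.99, adjusted p = 0.0108), with upper-quartile scaling (0.0445), total counts (0.0335), a mean of at least 5 CPM (0.0488) or no robust dispersion (0.0483), and in the DESeq2 Wald test (0.00447). The highest adjusted p over the alternatives was 0.189, against a 1.5-fold change.

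Genes were ranked by the gap between the primary line and the nearest metastatic line, among those past the edgeR threshold with a mean of at least 5 CPM. The genes with the largest gap included Soat2, Fgf21, Tnfrsf26 and Cldn4 on the higher side. Soat2, which esterifies cholesterol, had no count in the primary library and 12.3, 8.00 and 9.59 CPM in lines 384, 386 and 387. Against a floor of 3 counts in the primary library it was at least 40.7-fold higher in the mean of the metastatic lines, and it passed the test (adjusted p = 0.0103). Fgf21, a stress-induced secreted hormone, had no count in the primary library either and 13.5, 6.82 and 9.54 CPM in the metastatic lines, at least 40.5-fold higher (adjusted p = 0.0104). Both were detected in every metastatic line.

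Tnfrsf26, of the TNF receptor family, stood at 0.646 CPM in the primary line and 48.8, 26.8 and 39.8 CPM in the metastatic lines and rose by 5.88 log2 units (SE 0.58, adjusted p = 0.0104). Stbd1, which tethers glycogen to membranes, stood at 9.77 CPM in the primary line and 228, 159.9 and 251 CPM in the metastatic lines and rose by 4.45 (SE 0.37, adjusted p = 0.00961). Cldn4, a claudin of tight junctions, stood at 0.969 CPM in the primary line and 38.2, 19.6 and 44.8 CPM in the metastatic lines and rose by 5.13 (SE 0.71, adjusted p = 0.016), but did not pass with limma voom. The ranking chose genes with such a gap, so in all of these the primary value lay far below the lowest metastatic line. Prl3d1, a placental lactogen that may share reads with close relatives, rose by 5.32 (SE 0.50, adjusted p = 0.00976) and Lrrn4cl, a membrane protein with a fibronectin domain, by 3.64 (SE 0.35, adjusted p = 0.0102). Angptl6, an angiopoietin-like secreted protein, stood at 5.41 CPM in the primary line and 179.7, 84.6 and 164 CPM in the metastatic lines and rose by 4.72 (SE 0.62, adjusted p = 0.0167; adjusted p = 0.0551 without line 387). Car6, Me3, Mapk4 and Cox6a2 completed the 12 genes with the largest gap. Mapk4, an atypical MAP kinase, stood at 0.565 CPM in the primary line and 15.9, 7.08 and 17.9 CPM in the metastatic lines and rose by 4.57 (SE 0.81, adjusted p = 0.0231; adjusted p = 0.0641 without line 387). Cox6a2, the muscle form of a cytochrome oxidase subunit, had no count in the primary library and 9.74, 4.13 and 12.4 CPM in the metastatic lines, at least 36.8-fold higher (adjusted p = 0.0209; adjusted p = 0.053 without line 387). Line 386 was the lowest of the metastatic lines in both. Car6, a secreted carbonic anhydrase, stood at 0.484 CPM in the primary line and 67.4, 12.5 and 55.9 CPM in the metastatic lines, again lowest in line 386. It rose by 6.52 with all lines (SE 1.52, adjusted p = 0.0468; adjusted p = 0.0944 without line 384 and 0.106 without line 387).

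On the lower side of the same ranking the gap was largest for Vim and for Itga1, C1qtnf3 and Aldh3a1, among others. Vim encodes vimentin, the intermediate filament of mesenchymal cells, and stood at 309 CPM in the primary line and 6.59, 0.393 and 0.738 CPM in the metastatic lines. It fell by 6.97 log2 units (SE 1.07, adjusted p = 0.0219; adjusted p = 0.0718 without line 387). Line 384 was higher than lines 386 and 387, and all 3 were far below the primary line. In bulk libraries, fewer cells with a transcript and less transcript per cell cannot be told apart. Of the fibroblast markers given above, Fbln1 and Col1a1 were also lower in all 3 metastatic lines while Dcn and Pdgfra were higher, and their part in the value of Vim was not tested.

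Itga1, the integrin chain that binds collagen, stood at 41.8 CPM in the primary line and 0.586, 0.983 and 0.511 CPM in the metastatic lines and fell by 5.90 (SE 0.37, adjusted p = 0.00892). C1qtnf3, a secreted C1q-like protein, stood at 89.7 CPM in the primary line and 2.34, 0.655 and 1.19 CPM in the metastatic lines and fell by 6.02 (SE 0.50, adjusted p = 0.00976). Cx3cl1, the membrane-bound chemokine fractalkine, stood at 37.1 CPM in the primary line and 1.17, 2.10 and 1.53 CPM in the metastatic lines and fell by 4.52 (SE 0.34, adjusted p = 0.00892). As the ranking requires, no metastatic line overlapped the primary line in these genes. Among them C1qtnf3 differed most among the metastatic lines. Sostdc1, a secreted antagonist of BMP and Wnt ligands, stood at 278 CPM in the primary line and 3.00, 16.1 and 6.70 CPM in the metastatic lines and fell by 5.01 (SE 0.72, adjusted p = 0.0196; adjusted p = 0.0723 without line 387). Gpc3, a glypican, stood at 32.4 CPM in the primary line and 0.805, 0.0655 and 0 CPM in the metastatic lines and fell by 6.88 (SE 1.07, adjusted p = 0.0222; adjusted p = 0.0587 without line 387), but did not pass in the DESeq2 Wald test. Aldh3a1, an aldehyde dehydrogenase, fell by 5.58 (SE 0.51, adjusted p = 0.0104), from 166 CPM to 2.71, 1.84 and 5.73 CPM. Krt15, a keratin of basal progenitor cells, fell by 4.21 (SE 0.44, adjusted p = 0.0109), from 129 CPM to 7.39, 3.67 and 9.71 CPM. Aff3, a nuclear factor, fell by 4.48 (SE 0.61, adjusted p = 0.0145; adjusted p = 0.0609 without line 387), and Mgll, a lipase that cleaves monoglycerides, by 4.89 (SE 0.98, adjusted p = 0.0345; adjusted p = 0.0967 without line 384 and 0.0892 without line 387), from 44.2 CPM to 2.05, 0.0655 and 2.33 CPM. Lrrn3 and Acss2 completed the 12 genes.

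**Figure D2:**
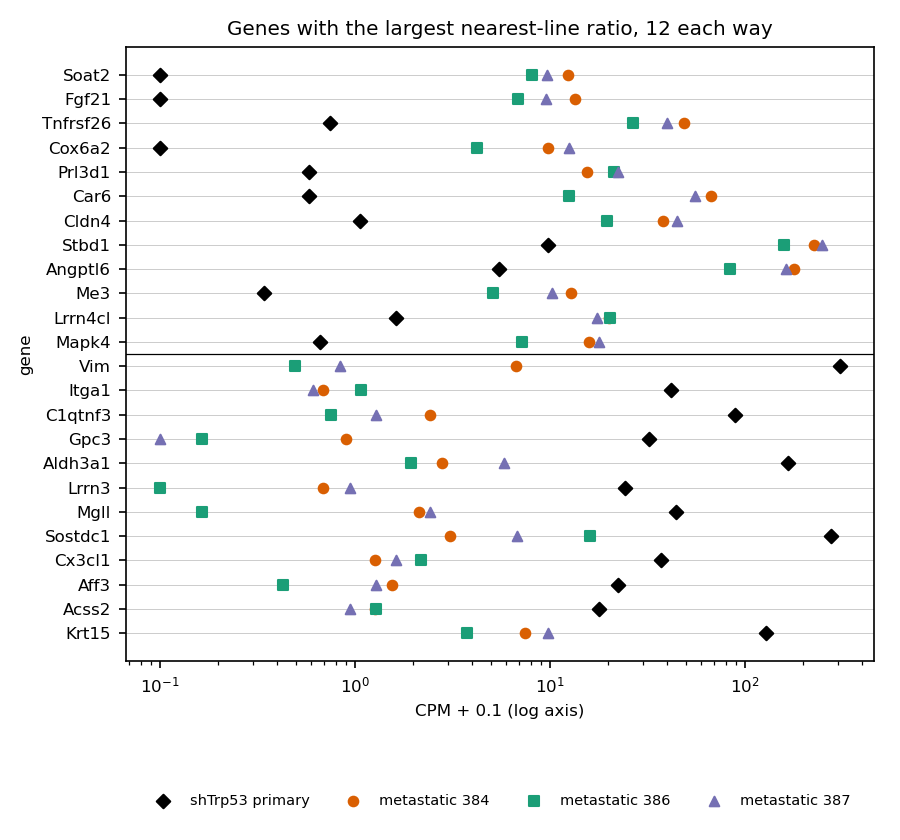
CPM + 0.1 on a log axis for the 12 genes each way with the largest log2 ratio of the nearest metastatic line to the primary line, with 1 marker per library. The ranking was among genes past the edgeR threshold with a mean of at least 5 CPM. By this choice the primary line (black) lies below every metastatic line in the upper 12 genes, and in the lower 12, such as Vim at 309 CPM, above every one.

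Genes of the ATF4 and amino acid response were higher in the metastatic lines. Of 29 measured members, 12 were set apart with higher levels (41.4%, against 5.69% of all genes) and none with lower. The median log2 ratio of the list was 1.14, beside -0.03 for all genes tested, and its medians in lines 384, 386 and 387 were 1.09, 1.01 and 1.27. In the edgeR test 18 members rose (62.1%, against 8.39% of all genes) and 0 fell. In fits without lines 384, 386 and 387 in turn, 14, 21 and 10 rose, and 10 were called in each of these fits. Over all genes tested, 441 of 11709, 1617 of 11780 and 143 of 11734 rose in them. In each list the set-apart members with the largest gap were chosen by rule, and every other member named was chosen after its values were seen.

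Atf4, the transcription factor itself, stood at 117 CPM in the primary line and 330.2, 317 and 374 CPM in the metastatic lines and rose by 1.53 log2 units (SE 0.19, adjusted p = 0.0109). Trib3, a pseudokinase induced by ATF4, stood at 16.2 CPM in the primary line and 209, 154 and 213 CPM in the metastatic lines and rose by 3.56 (SE 0.29, adjusted p = 0.00892). Ppp1r15a, the phosphatase subunit that reopens translation, stood at 105 CPM in the primary line and 1048, 790.5 and 939 CPM in the metastatic lines and rose by 3.13 (SE 0.25, adjusted p = 0.00892). In these genes the 3 metastatic lines lay close together and far above the primary line. Chac1, which degrades glutathione, rose by 2.57 (SE 0.30, adjusted p = 0.0104), and Sesn2, a stress-induced brake on mTORC1, by 2.22 (SE 0.30, adjusted p = 0.0125). The serine synthesis enzymes moved the same way: Psat1 rose by 1.59 (SE 0.18, adjusted p = 0.0104) and Psph by 1.96 (SE 0.19, adjusted p = 0.0102), and Mthfd2 of mitochondrial one-carbon metabolism rose by 1.48 (SE 0.17, adjusted p = 0.0104). Asns, asparagine synthetase, rose by 1.35 with all lines (SE 0.24, adjusted p = 0.0214; adjusted p = 0.0652 without line 387). Nars, which charges the asparagine tRNA, stood at 548 CPM in the primary line and 2915, 2478 and 3539.8 CPM in the metastatic lines and rose by 2.44 (SE 0.28, adjusted p = 0.0104). Ddit3, the factor CHOP, stood at 39.1 CPM in the primary line and 126, 78.4 and 139 CPM in the metastatic lines, with line 386 nearest to the primary line, and rose by 1.55 (SE 0.37, adjusted p = 0.0438; adjusted p = 0.096 without line 384 and 0.0918 without line 387). Members that did not pass included Slc7a5, a leucine transporter, at 111 CPM against 167, 167 and 173 CPM (adjusted p = 0.0513 with all lines and 0.036 without line 386), and Shmt2 at 256 CPM against 276, 230.1 and 267 CPM.

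ATF4 and its partners bind composite elements with the letters TGATGNAA, where N is any base. The element was looked for on both strands of the 300 bases from 250 before to 50 after each start site, in RefSeq promoters of the build GRCm38.p6. Of the 29 measured members, 24 had a promoter in that table and 8 of them held the letters (33.3%), against 258 of 9267 tested genes (2.78%). Of the 17 members that rose and had a promoter, 5 held them (29.4%). Pycr1, Slc1a4 and Vldlr, which did not pass, held them too. The 250 bases before the start site are shown for Chac1, Asns and Fgf21, genes that rose and hold the element there, with the element in capitals (on either strand). A match describes the letters only and is no measure of binding.
Chac1 (chr2:119350992-119351241, plus strand): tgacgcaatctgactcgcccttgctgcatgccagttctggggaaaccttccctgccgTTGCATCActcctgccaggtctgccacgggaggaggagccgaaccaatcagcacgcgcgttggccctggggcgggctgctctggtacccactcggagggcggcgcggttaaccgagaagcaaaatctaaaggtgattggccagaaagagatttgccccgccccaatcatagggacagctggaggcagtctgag
Asns (chr6:7693210-7693459, minus strand): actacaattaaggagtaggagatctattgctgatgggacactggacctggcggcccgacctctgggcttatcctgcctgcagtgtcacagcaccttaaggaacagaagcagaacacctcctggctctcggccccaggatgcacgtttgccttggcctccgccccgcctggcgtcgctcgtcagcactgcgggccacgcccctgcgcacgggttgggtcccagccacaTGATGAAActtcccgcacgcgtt
Fgf21 (chr7:45615491-45615740, minus strand): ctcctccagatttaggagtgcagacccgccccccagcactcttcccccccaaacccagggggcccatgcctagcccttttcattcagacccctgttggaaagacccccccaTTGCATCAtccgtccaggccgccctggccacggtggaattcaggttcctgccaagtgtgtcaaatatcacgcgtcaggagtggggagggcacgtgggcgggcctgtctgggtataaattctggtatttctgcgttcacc

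The first letter of the match lay 193 bases before the start site in Chac1, 23 in Asns and 139 in Fgf21. Fgf21 is not a member of the list.

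Genes of sterol and fatty acid synthesis were lower in the metastatic lines. Of 26 measured sterol genes, 11 were set apart with lower levels (42.3%, against 7.25% of all genes) and none with higher, with a median log2 ratio of -1.15. In the edgeR test 16 fell (61.5%, against 7.88% of all genes) and 0 rose. Of 18 measured fatty acid genes, 10 were set apart with lower levels (55.6%) and 9 fell, with a median of -1.32. With lines 384, 386 and 387 left out in turn, 10, 21 and 6 sterol genes and 9, 12 and 6 fatty acid genes fell. Over all genes tested, 427 of 11709, 1454 of 11780 and 134 of 11734 fell in these fits.

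In the sterol pathway, Acat2, the cytosolic thiolase at its start, stood at 456 CPM in the primary line and 107, 100.3 and 106 CPM in the metastatic lines and fell by 2.13 (SE 0.14, adjusted p = 0.00892). Hmgcs1, HMG-CoA synthase, stood at 517 CPM in the primary line and 159, 189 and 151 CPM in the metastatic lines and fell by 1.64 (SE 0.17, adjusted p = 0.0104). Mvd, mevalonate decarboxylase, stood at 99.8 CPM in the primary line and 28.0, 32.0 and 22.4 CPM in the metastatic lines and fell by 1.86 (SE 0.23, adjusted p = 0.0104). The metastatic lines differed little from each other in these enzymes. Mvk fell by 1.62 (SE 0.20, adjusted p = 0.0104) and Cyp51 by 1.56 (SE 0.17, adjusted p = 0.0104). Nsdhl, a late enzyme of the pathway, stood at 61.4 CPM in the primary line and 20.9, 6.16 and 17.7 CPM in the metastatic lines, lowest in line 386 (adjusted p = 0.076 with all lines and 0.00666 without line 386). Tm7sf2, a sterol reductase, fell by 1.69 (SE 0.29, adjusted p = 0.0201; adjusted p = 0.0647 without line 387). Msmo1 did not pass, at 925 CPM against 771, 903 and 782 CPM.

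Among fatty acid genes, Acss2, which makes acetyl-CoA from acetate, stood at 17.9 CPM in the primary line and 1.17, 1.18 and 0.852 CPM in the metastatic lines and fell by 4.06 (SE 0.37, adjusted p = 0.00961). Fasn, fatty acid synthase, stood at 76.9 CPM in the primary line and 11.6, 17.7 and 11.6 CPM in the metastatic lines and fell (adjusted p = 0.0104). Scd1 and Scd2 encode desaturases that make monounsaturated fatty acids. Scd1 fell by 2.44 (SE 0.32, adjusted p = 0.0117), and Scd2, at 456 CPM in the primary line and 78.8, 70.7 and 51.1 CPM in the metastatic lines, by 2.77 (SE 0.24, adjusted p = 0.00961). Acly, which makes cytosolic acetyl-CoA from citrate, fell by 2.16 (SE 0.28, adjusted p = 0.0117) and the elongase Elovl6 by 1.75 (SE 0.21, adjusted p = 0.0104). Srebf1, the transcription factor of the pathway, stood at 30.1 CPM in the primary line and 11.5, 10.3 and 7.49 CPM in the metastatic lines and fell by 1.63 (SE 0.30, adjusted p = 0.023; adjusted p = 0.0678 without line 387). Elovl5, another elongase, stood at 122 CPM against 165, 185 and 159 CPM and did not pass (adjusted p = 0.112).

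Genes of the cell division cycle were lower in the metastatic lines. Of 30 mitosis genes, the primary value lay above all 3 metastatic lines for 29 (96.7%, against 39.2% of all genes). Of these 30, 10 were set apart with lower levels (33.3%, against 7.25% of all genes) and 17 fell (56.7% against 7.88%). Their median log2 ratio was -1.06, with line medians of -0.99, -1.34 and -0.94 in lines 384, 386 and 387. Of 30 DNA replication genes, 10 were set apart with lower levels (33.3%) and 14 fell (46.7%), with a median of -0.77, and none rose. Without lines 384, 386 and 387 in turn, 10, 22 and 2 mitosis genes and 8, 16 and 5 replication genes fell. Over all genes tested in these fits, 427 of 11709, 1454 of 11780 and 134 of 11734 fell.

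Plk1, the kinase that drives entry into and passage through mitosis, stood at 132 CPM in the primary line and 39.6, 28.0 and 36.0 CPM in the metastatic lines and fell by 1.93 log2 units (SE 0.22, adjusted p = 0.0104). Cdk1, the kinase of cyclin B, stood at 331 CPM in the primary line and 113, 98.5 and 112 CPM in the metastatic lines and fell by 1.62 (SE 0.16, adjusted p = 0.0102). These were the mitosis genes called in all fits without 1 line. Aurkb, the kinase subunit of the chromosomal passenger complex that holds survivin, stood at 173 CPM in the primary line and 58.2, 28.8 and 47.1 CPM in the metastatic lines and fell by 1.96 (SE 0.35, adjusted p = 0.0246; adjusted p = 0.0814 without line 387). The 3 metastatic lines all lay well below the primary line, line 386 lowest. Kif20a, a motor of cytokinesis, fell by 2.16 (SE 0.41, adjusted p = 0.0304; adjusted p = 0.0608 without line 384 and 0.0806 without line 387), from 229 CPM to 64.8, 29.8 and 59.7 CPM. Bub1b, a spindle checkpoint kinase, fell by 2.14 (SE 0.34, adjusted p = 0.0196; adjusted p = 0.0617 without line 387). Cdc20, the activator of the anaphase-promoting complex, stood at 354 CPM in the primary line and 171, 101 and 132 CPM in the metastatic lines and fell by 1.39 (SE 0.27, adjusted p = 0.0284; adjusted p = 0.0896 without line 387). Cdca8, another passenger complex subunit, stood at 243 CPM against 235, 186 and 229.8 CPM and did not pass, and Mad2l1 stood at 189 CPM against 194, 145 and 211 CPM, the member of the list with overlapping levels. Kif11, the motor that separates spindle poles, stood at 161 CPM in the primary line and 76.1, 44.5 and 68.3 CPM in the metastatic lines and fell by 1.36 (SE 0.29, adjusted p = 0.0342; adjusted p = 0.0894 without line 387).

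Among replication genes, Tyms, thymidylate synthase, stood at 277 CPM in the primary line and 66.1, 71.2 and 69.8 CPM in the metastatic lines and fell by 2.00 (SE 0.15, adjusted p = 0.00892). Mcm7, a subunit of the replicative helicase, stood at 258 CPM in the primary line and 67.6, 69.5 and 61.7 CPM in the metastatic lines and fell by 1.96 (SE 0.16, adjusted p = 0.00892). The metastatic lines were nearly level in both genes. Tk1, thymidine kinase, fell by 2.18 (SE 0.23, adjusted p = 0.0104), from 207 CPM to 36.3, 46.1 and 54.3 CPM. The helicase subunits were not uniform: Mcm5 fell by 1.35 (SE 0.16, adjusted p = 0.0104) and Mcm6 by 1.38 (SE 0.14, adjusted p = 0.0104), while Mcm3 stood at 193 CPM against 145, 199.7 and 139.6 CPM and did not pass. Ccne1, cyclin E1, fell by 2.19 (SE 0.43, adjusted p = 0.0287; adjusted p = 0.0977 without line 387). Pcna, the sliding clamp, stood at 135 CPM in the primary line and 134, 116 and 141 CPM in the metastatic lines, with the primary value inside the range, and Cdt1, the licensing factor, at 95.9 CPM against 124, 143 and 116 CPM, without passing.

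The cell cycle homology region, with the letters TTTGAA, is a promoter element through which the DREAM and MuvB complexes act on genes of late cell cycle. Searched on both strands in the same promoters, it was held by 16 of the 23 measured mitosis genes with a promoter in the table (69.6%), against 1312 of 9267 tested genes (14.2%). Of the 12 mitosis genes that fell and had a promoter, 11 held it. The E2F letters TTTGGCGC were held by 5 of 24 replication genes with a promoter (20.8%), against 107 of 9267 (1.15%). Each of 5 motifs was searched in each of 6 lists, and not all matched the list they are known for. The sterol regulatory element TCACNCCAC was held by 1 of 18 sterol and 0 of 15 fatty acid promoters, against 1.36% of tested genes. The core of the antioxidant response element, TGACNNNGC, was held by 9 of 21 NRF2 targets (42.9%), but also by 9 of 24 ATF4 genes (37.5%), against 17.2% of tested genes. Neither TTTGAA nor TTTGGCGC contains the other or another of these patterns. The 250 bases before the start site are shown for Cdk1, Cdc20 and Kif11, genes that fell and hold TTTGAA there, with the matches on either strand in capitals.
Cdk1 (chr10:69352913-69353162, minus strand): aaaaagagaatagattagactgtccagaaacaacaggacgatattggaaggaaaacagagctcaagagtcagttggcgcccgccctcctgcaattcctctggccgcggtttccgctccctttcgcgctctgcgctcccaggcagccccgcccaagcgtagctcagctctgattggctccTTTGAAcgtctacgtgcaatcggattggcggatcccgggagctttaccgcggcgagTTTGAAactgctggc
Cdc20 (chr4:118437344-118437593, minus strand): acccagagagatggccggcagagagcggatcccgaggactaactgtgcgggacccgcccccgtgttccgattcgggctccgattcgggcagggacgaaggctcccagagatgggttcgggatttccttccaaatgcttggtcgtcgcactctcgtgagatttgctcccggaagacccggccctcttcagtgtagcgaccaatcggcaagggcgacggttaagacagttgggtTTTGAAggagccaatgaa
Kif11 (chr19:37376132-37376381, plus strand): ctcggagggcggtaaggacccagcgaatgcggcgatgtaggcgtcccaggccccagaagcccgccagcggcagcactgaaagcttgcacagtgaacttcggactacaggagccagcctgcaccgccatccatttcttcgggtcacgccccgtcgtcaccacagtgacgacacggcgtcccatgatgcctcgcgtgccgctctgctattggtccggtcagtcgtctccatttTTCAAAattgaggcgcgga

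The match nearest to the start site began 15 bases before it in Cdk1, 18 in Cdc20 and 19 in Kif11. In Birc5 the letters were not found in this window.

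Tight junction, adhesion and polarity genes and the simple keratins Krt7, Krt8 and Krt18 were higher in the metastatic lines, and desmosome genes were not. Vim, Zeb1 and a part of the basal squamous genes were lower. Of 19 measured junction, adhesion and polarity genes, 11 were set apart with higher levels (57.9%, against 5.69% of all genes) and none with lower, with a median log2 ratio of 1.42. In the edgeR test 7 rose (36.8%, against 8.39% of all genes) and 1 fell (5.26% against 7.88%). In fits without lines 384, 386 and 387 in turn, 8, 12 and 5 rose and 0, 1 and 0 fell. Crb3, a polarity protein of the apical membrane, stood at 6.30 CPM in the primary line and 63.9, 72.2 and 43.8 CPM in the metastatic lines and rose by 3.25 (SE 0.39, adjusted p = 0.0104). Pard6b, a partner of atypical protein kinase C in polarity, rose by 2.08 (SE 0.24, adjusted p = 0.0104), and Esrp1, a splicing factor of epithelial cells, by 2.04 (SE 0.21, adjusted p = 0.0104). F11r, the junctional adhesion molecule JAM-A, stood at 121 CPM in the primary line and 422, 376 and 393 CPM in the metastatic lines and rose by 1.71 (SE 0.18, adjusted p = 0.0104). Cdh1, E-cadherin, stood at 33.9 CPM in the primary line and 90.0, 106 and 96.2 CPM in the metastatic lines and rose by 1.52 (SE 0.20, adjusted p = 0.0123; adjusted p = 0.051 without line 387). The member that fell was Ctnnb1, beta-catenin, by 0.73 (SE 0.17, adjusted p = 0.0387; adjusted p = 0.109 without line 384 and 0.107 without line 387), from 86.4 CPM to 49.9, 52.7 and 53.8 CPM. Cldn1 stood at 0.969 CPM in the primary line and 8.13, 21.4 and 7.44 CPM in the metastatic lines, set apart but short of the threshold (adjusted p = 0.0513 with all lines and 0.0108 without line 386). Of 17 measured desmosome and hemidesmosome genes 1 rose (5.88%) and 1 fell (5.88%), near the shares of all genes, with a median of -0.06, and the primary value lay below all 3 lines for 23.5% and above them for 41.2%. The member that rose was Dsg2, a desmoglein, by 1.38 (SE 0.28, adjusted p = 0.0279; adjusted p = 0.062 without line 384 and 0.0718 without line 387), and the one that fell Itgb4, the hemidesmosome integrin chain, by 0.98 (SE 0.23, adjusted p = 0.0379; adjusted p = 0.0771 without line 384 and 0.105 without line 387). Without line 386, 1 rose and 3 fell, and without lines 384 or 387 none passed.

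Of 6 measured simple keratins 3 were set apart with higher levels, and the same 3 rose (50.0% each, against 5.69% and 8.39% of all genes), of which 3, 3 and 1 passed without lines 384, 386 and 387 in turn. These 3 were the only members with a mean of at least 5 CPM. Of the 6, the primary value lay below all 3 metastatic lines for 5 and above them for 1, at a mean log2 ratio of -1.09. Krt7 stood at 337 CPM in the primary line and 1036, 966 and 1375 CPM in the metastatic lines and rose by 1.74 (SE 0.27, adjusted p = 0.0167). Krt18 rose by 1.94 (SE 0.40, adjusted p = 0.0324; adjusted p = 0.0707 without line 387) and Krt8 by 1.75 (SE 0.30, adjusted p = 0.0222; adjusted p = 0.0699 without line 387). Of 15 measured mesenchymal genes, Vim and Zeb1 fell (13.3%, against 7.88% of all genes) and the median log2 ratio was -0.51. Without line 387 none of them passed, and without lines 384 and 386, 2 and 5 fell. Zeb1, a repressor of E-cadherin, stood at 14.0 CPM in the primary line and 0.439, 0 and 0.284 CPM in the metastatic lines and fell by 5.83 (SE 0.86, adjusted p = 0.017; adjusted p = 0.0718 without line 387). Zeb2 stood at 11.5 CPM in the primary line and 5.42, 3.54 and 5.17 CPM in the metastatic lines, also set apart but not past the threshold (adjusted p = 0.0637 with all lines and 0.0476 without line 386). Other members of the list overlapped: Twist1 stood at 45.9 CPM against 41.9, 57.2 and 35.0 CPM, and Sparc at 467 CPM against 369.7, 666 and 403 CPM. Fn1, fibronectin, stood at 14.4 CPM in the primary line and 28.8, 10.7 and 36.0 CPM in the metastatic lines, with lines 384 and 387 above and line 386 below the primary line (adjusted p = 0.453 with all lines and 0.0253 without line 386). Snai2 stood at 182 CPM against 194, 249 and 285 CPM, above the primary line in all 3 without passing.

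Of 14 measured basal squamous genes 5 were set apart with lower levels (35.7%, against 7.25% of all genes) and 1 with higher (7.14% against 5.69%). By the test, 6 fell (42.9%, against 7.88% of all genes) and 1 rose (7.14%, near the 8.39% of all genes). With lines 384, 386 and 387 left out in turn, 4, 6 and 1 fell and 0, 3 and 0 rose. Krt5, the partner keratin of Krt14, stood at 1093 CPM in the primary line and 294, 162 and 396 CPM in the metastatic lines and fell by 1.94 (SE 0.44, adjusted p = 0.0445; adjusted p = 0.123 without line 384 and 0.062 without line 387). Sox2, a stem cell factor amplified in squamous cancers, stood at 55.2 CPM in the primary line and 19.5, 21.2 and 15.8 CPM in the metastatic lines and fell by 1.55 (SE 0.23, adjusted p = 0.016; adjusted p = 0.0543 without line 387). Trp63 fell by 1.34 (SE 0.21, adjusted p = 0.0178; adjusted p = 0.0641 without line 387). Bcl11b, a zinc finger factor of skin and T cells, fell by 1.52 (SE 0.29, adjusted p = 0.0237; adjusted p = 0.0678 without line 387). Krt14 did not pass, and the 1 member that rose was Egfr, the receptor of EGF, by 1.51 (SE 0.37, adjusted p = 0.0427; adjusted p = 0.0571 without line 384 and 0.0826 without line 387), from 11.2 CPM to 26.7, 42.1 and 26.9 CPM. Of 13 measured genes of squamous differentiation 2 rose (15.4%, against 8.39% of all genes), and without lines 384, 386 and 387 in turn 2, 5 and 1 rose. Klf4, a factor of the suprabasal layers, stood at 19.6 CPM in the primary line and 76.9, 70.5 and 79.1 CPM in the metastatic lines and rose by 1.94 (SE 0.21, adjusted p = 0.0104). Sprr1b, a cornified envelope protein with close relatives whose reads may be shared, rose by 3.07 (SE 0.70, adjusted p = 0.0404; adjusted p = 0.0806 without line 387). Sprr1a stood at 1.37 CPM in the primary line and 12.6, 3.80 and 10.7 CPM in the metastatic lines (adjusted p = 0.0784 with all lines and 0.0074 without line 386) and Krt13, a keratin of the suprabasal esophagus, at 6.54 CPM in the primary line and 0.586, 0.262 and 1.70 CPM in the metastatic lines (adjusted p = 0.0649 with all lines and 0.038 without line 386), set apart in opposite directions. Krt6a, at 269.7 CPM against 229, 313 and 295 CPM, overlapped.

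NRF2 targets were lower in the metastatic lines, with exceptions. Of 27 measured targets, 12 were set apart with lower levels (44.4%, against 7.25% of all genes) and 1 with higher (3.7% against 5.69%). By the test, 12 fell (44.4% against 7.88%) and 2 rose (7.41%, near the 8.39% of all genes), with a median log2 ratio of -1.06. Without lines 384, 386 and 387 in turn, 11, 17 and 5 fell and 0, 3 and 0 rose. Ugdh, which makes UDP-glucuronate, stood at 367 CPM in the primary line and 59.2, 38.7 and 58.8 CPM in the metastatic lines and fell by 2.81 (SE 0.25, adjusted p = 0.00961). Gsta4, a glutathione transferase for lipid aldehydes, stood at 711 CPM in the primary line and 127, 82.8 and 135 CPM in the metastatic lines and fell by 2.63 (SE 0.26, adjusted p = 0.0104). Gclm, the modifier subunit of the enzyme that starts glutathione synthesis, stood at 777 CPM in the primary line and 155, 94.5 and 131 CPM in the metastatic lines and fell by 2.61 (SE 0.26, adjusted p = 0.0104). Gstm1, another transferase, which may share reads with close relatives, fell by 3.32 (SE 0.51, adjusted p = 0.0219; adjusted p = 0.0693 without line 384). In these genes the metastatic lines lay far below the primary line. Nqo1, a quinone reductase, stood at 266 CPM in the primary line and 102, 34.1 and 111 CPM in the metastatic lines, all lower but with line 386 apart from the others, and did not pass with all of them (adjusted p = 0.112 with all lines and 0.00574 without line 386). The genes that rose were exceptions in the list. Hmox1, heme oxygenase, rose by 1.78 (SE 0.35, adjusted p = 0.0271; adjusted p = 0.0506 without line 384 and 0.076 without line 387), from 28.9 CPM to 116, 70.5 and 111 CPM. Txnrd1 and Prdx1 did not pass, at 131 CPM against 165, 133 and 152 CPM and 1231 CPM against 1287, 1175 and 1336 CPM.

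**Figure D3:**
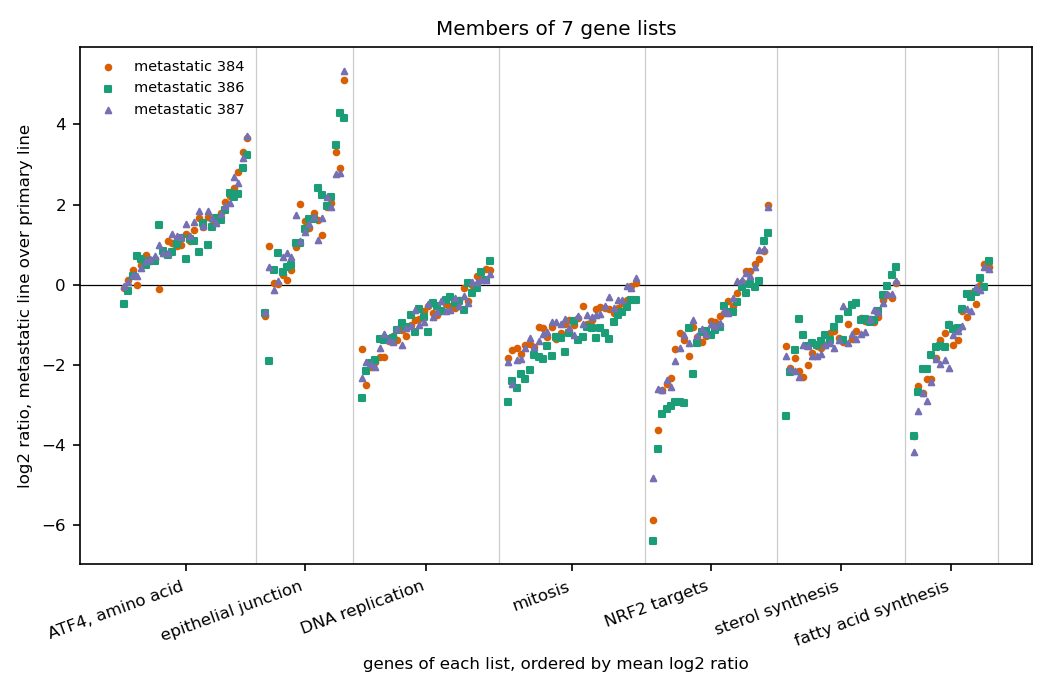
Log2 ratio of each metastatic line to the primary line (y axis) for the measured members of 7 gene lists, ordered within a list by their mean ratio, with 1 marker per line. Most ATF4 and junction genes lie above 0 in all 3 lines, and most replication, mitosis, NRF2, sterol and fatty acid genes below it.

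Genes known as p53 targets were more often higher than lower in the metastatic lines, while Trp53 itself was low in all 4 lines. Of 33 measured targets, 8 were set apart with higher levels (24.2%, against 5.69% of all genes) and 2 with lower (6.06% against 7.25%). In the edgeR test 10 rose (30.3% against 8.39%) and 3 fell (9.09% against 7.88%), with a median log2 ratio of 0.36. In fits without lines 384, 386 and 387 in turn, 4, 13 and 5 rose and 2, 4 and 2 fell. Plk2, a stress-induced kinase, stood at 659 CPM in the primary line and 2674, 3947 and 2825 CPM in the metastatic lines and rose by 2.26 (SE 0.30, adjusted p = 0.0125). Pmaip1, the BH3-only protein Noxa, stood at 83.4 CPM in the primary line and 428, 327 and 334 CPM in the metastatic lines and rose by 2.12 (SE 0.24, adjusted p = 0.0104). Gadd45b, a growth arrest gene, rose by 1.74 (SE 0.25, adjusted p = 0.0144). Sesn2 is a member of both this list and the ATF4 list, so the lists are not separate. Sesn1, a sestrin, moved opposite to its relative Sesn2. It stood at 91.5 CPM in the primary line and 15.7, 13.5 and 14.0 CPM in the metastatic lines and fell by 2.67 (SE 0.19, adjusted p = 0.00892). Trp73, the p53 family member p73, stood at 10.4 CPM in the primary line and 0.293, 0.328 and 0.114 CPM in the metastatic lines and fell by 5.39 (SE 0.57, adjusted p = 0.0104). Cdkn1a, the CDK inhibitor p21, stood at 31.2 CPM in the primary line and 113, 60.0 and 141 CPM in the metastatic lines, above the primary line in all 3 but short of the threshold (adjusted p = 0.0826 with all lines and 0.00517 without line 386), and Mdm2 stood at 74.1 CPM against 101, 95.3 and 90.0 CPM without passing. Of 12 measured inhibitors of apoptosis 1 rose and 1 fell (8.33% each, near the shares of all genes), and of 18 pro-apoptotic genes 3 rose (16.7%) and 1 fell (5.56%). In fits without lines 384, 386 and 387 in turn, 1, 2 and 0 inhibitors rose and 1, 2 and 0 fell, and 1, 4 and 1 pro-apoptotic genes rose and 0, 1 and 0 fell. The inhibitor Bcl2l1 rose by 0.96 (SE 0.17, adjusted p = 0.0222; adjusted p = 0.0747 without line 387), and Bcl2 fell by 1.82 (SE 0.32, adjusted p = 0.0212; adjusted p = 0.0696 without line 387), from 20.7 CPM to 4.54, 6.55 and 6.42 CPM. Bbc3, the BH3-only protein Puma, rose by 1.59 (SE 0.37, adjusted p = 0.0392; adjusted p = 0.0943 without line 384 and 0.102 without line 387).

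Of the genes of the matrix and of the TGF-beta response that passed with all lines, each was lower in the metastatic lines. Of 27 measured integrins, laminins and collagens, 7 were set apart with lower levels (25.9%, against 7.25% of all genes) and none with higher. By the test, 6 fell (22.2% against 7.88%) and 0 rose. When lines 384, 386 and 387 were left out in turn, 4, 11 and 3 fell and 0, 1 and 0 rose. Beside Itga1, Itgb5, an integrin chain that pairs with the alpha v chain, stood at 94.8 CPM in the primary line and 25.7, 25.8 and 32.5 CPM in the metastatic lines and fell by 1.76 (SE 0.21, adjusted p = 0.0104). Col18a1, a basement membrane collagen, stood at 66.5 CPM in the primary line and 16.4, 15.1 and 21.2 CPM in the metastatic lines and fell by 1.92 (SE 0.24, adjusted p = 0.011). Col5a1, a fibrillar collagen chain, fell by 3.51 (SE 0.83, adjusted p = 0.0422; adjusted p = 0.119 without line 387), and Lamb2, a laminin chain, by 2.11 (SE 0.44, adjusted p = 0.0291; adjusted p = 0.0557 without line 384 and 0.0718 without line 387). Not all integrin genes were lower. Itga2, which stood at 3.47 CPM against 3.44, 4.98 and 23.2 CPM, was higher in line 387, and Itgb1, the shared beta chain, overlapped, at 1119 CPM against 923, 1431 and 1122 CPM. Of 22 measured TGF-beta genes, 9 were set apart with lower levels (40.9%, against 7.25% of all genes) and 5 fell (22.7% against 7.88%), with none in the other direction. When lines 384, 386 and 387 were left out in turn, 4, 8 and 2 fell. Thbs1, thrombospondin, which can activate latent TGF-beta, stood at 144 CPM in the primary line and 15.2, 27.6 and 15.9 CPM in the metastatic lines and fell by 2.88 (SE 0.34, adjusted p = 0.0109). Id2, an inhibitor of basic helix-loop-helix factors, stood at 101 CPM in the primary line and 12.9, 22.0 and 13.6 CPM in the metastatic lines and fell by 2.65 (SE 0.31, adjusted p = 0.0104). Tgfbi, a matrix protein induced by TGF-beta, stood at 73.1 CPM in the primary line and 14.6, 2.16 and 16.1 CPM in the metastatic lines (adjusted p = 0.0926 with all lines and 0.00381 without line 386). Tgfb3, a ligand, fell by 4.10 (SE 0.81, adjusted p = 0.0268; adjusted p = 0.0678 without line 387), while the receptor Tgfbr1 stood at 13.7 CPM against 14.9, 16.9 and 13.5 CPM and Tgfb1 at 30.0 CPM against 25.0, 31.3 and 24.4 CPM, both without passing.

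More cytokines and chemokines were set apart with higher than with lower levels. Of 22 measured members, 9 were set apart with higher levels (40.9%, against 5.69% of all genes) and 2 with lower (9.09%, near the 7.25% of all genes). By the edgeR test, 3 rose (13.6% against 8.39%) and 2 fell (9.09%, near the 7.88% of all genes). With lines 384, 386 and 387 left out in turn, 3, 7 and 2 rose. Cxcl16, a chemokine that can be membrane-bound, stood at 60.5 CPM in the primary line and 505, 468 and 389 CPM in the metastatic lines and rose by 2.91 (SE 0.24, adjusted p = 0.00892). Il23a, a subunit of interleukin 23, stood at 15.7 CPM in the primary line and 122, 104 and 174 CPM in the metastatic lines and rose by 3.09 (SE 0.38, adjusted p = 0.0117). Spp1, osteopontin, stood at 38.7 CPM in the primary line and 1.61, 3.93 and 3.29 CPM in the metastatic lines and fell by 3.70 (SE 0.43, adjusted p = 0.0104). Csf3, the growth factor of neutrophils, stood at 6.54 CPM in the primary line and 319.8, 40.0 and 43.0 CPM in the metastatic lines, with line 384 far above the other lines (adjusted p = 0.147 with all lines and 0.0153 without line 384). Tslp, an epithelial cytokine, stood at 22.9 CPM in the primary line and 106, 52.2 and 258 CPM in the metastatic lines, also spread widely among the lines (adjusted p = 0.136 with all lines and 0.0468 without line 386). Il24 stood at 83.0 CPM in the primary line and 280.3, 899 and 261 CPM in the metastatic lines, highest in line 386 (adjusted p = 0.116 with all lines and 0.00427 without line 386). All metastatic values of Csf3, Tslp and Il24 lay above the primary value.

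Among other signals, Wnt7a, a Wnt ligand of epithelia, stood at 13.7 CPM in the primary line and 110.1, 158 and 139.8 CPM in the metastatic lines and rose by 3.31 (SE 0.30, adjusted p = 0.00961). Sfrp1, a secreted Wnt antagonist, stood at 62.7 CPM in the primary line and 10.7, 12.5 and 9.54 CPM in the metastatic lines and fell by 2.52 (SE 0.23, adjusted p = 0.00961). F3, tissue factor, the starter of coagulation and a YAP target, stood at 230.1 CPM in the primary line and 728, 737 and 881 CPM in the metastatic lines and rose by 1.77 (SE 0.21, adjusted p = 0.0104). Ptgs2, which encodes the inducible cyclooxygenase, stood at 119 CPM in the primary line and 707, 618 and 528 CPM in the metastatic lines and rose by 2.37 (SE 0.24, adjusted p = 0.0104). These genes were named because they were set apart, so no metastatic value overlapped the primary value in them. Vegfa, the angiogenic factor, stood at 54.4 CPM in the primary line and 190.0, 144 and 158 CPM in the metastatic lines and rose by 1.59 (SE 0.23, adjusted p = 0.0147; adjusted p = 0.053 without line 387). Mmp3, a matrix protease, stood at 8.40 CPM in the primary line and 0.659, 0.197 and 0.284 CPM in the metastatic lines and fell by 4.47 (SE 0.63, adjusted p = 0.014; adjusted p = 0.0592 without line 387).

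Among growth factors, Vegfc, a ligand for lymphatic vessels, stood at 0.726 CPM in the primary line and 6.15, 4.46 and 6.93 CPM in the metastatic lines and rose by 2.99 (SE 0.57, adjusted p = 0.0242; adjusted p = 0.0521 without line 384 and 0.0782 without line 387). Ptk7, a receptor-like protein of Wnt signaling, fell by 2.01 (SE 0.27, adjusted p = 0.0125; adjusted p = 0.0513 without line 387), and Jag2, a Notch ligand, by 1.90 (SE 0.36, adjusted p = 0.0245; adjusted p = 0.076 without line 387). Ankrd1, a YAP target, rose by 4.09 (SE 0.91, adjusted p = 0.035; adjusted p = 0.0718 without line 387). Spint1, a membrane inhibitor of serine proteases, stood at 6.38 CPM in the primary line and 21.5, 25.6 and 26.3 CPM in the metastatic lines and rose by 1.94 (SE 0.29, adjusted p = 0.0164; adjusted p = 0.0592 without line 387). Mmp9, a gelatinase, had no count in the primary library and 2.64, 0.655 and 6.24 CPM in the metastatic lines. It was at least 13.8-fold higher in their mean, to which line 387 gave most (adjusted p = 0.0936 with all lines and 0.0157 without line 386). Serpinb2, an inhibitor of plasminogen activators, stood at 64.8 CPM in the primary line and 256, 551 and 242 CPM in the metastatic lines (adjusted p = 0.0532 with all lines and 0.00381 without line 386), and Pdgfb, a ligand for mesenchymal cells, at 0.161 CPM in the primary line and 6.59, 1.64 and 10.4 CPM in the metastatic lines (adjusted p = 0.0801 with all lines and 0.00704 without line 386). Neither passed with all lines, although every metastatic value lay above the primary value. The growth factor receptors and ligands held 4 genes of 28 that rose (14.3%), the Wnt and Notch genes 2 of 21 (9.52%), the YAP targets 3 of 20 (15%) and the proteases and their inhibitors 4 of 30 (13.3%), against 8.39% of all genes. These counts were 2, 1, 3 and 5 without line 384, 8, 2, 4 and 9 without line 386, and 0, 1, 1 and 0 without line 387. In the same order 1, 2, 1 and 1 genes fell (3.57%, 9.52%, 5.00% and 3.33%, against 7.88% of all genes), with 6, 4, 3 and 4 without line 386, 1, 3, 0 and 1 without line 384 and 0, 1, 0 and 0 without line 387.

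Of 23 measured hypoxia and glycolysis genes, the primary value lay above all 3 metastatic lines for 15 (65.2%, against 39.2% of all genes) and below them for 5 (21.7% against 37.5%), with a median log2 ratio of -0.42. In the edgeR test 4 rose and 4 fell (17.4% each, against 8.39% and 7.88%), while without lines 384, 386 and 387 in turn 2, 5 and 2 rose and 2, 6 and 0 fell. Ero1l, an oxidase of the endoplasmic reticulum, stood at 76.3 CPM in the primary line and 394, 296 and 437 CPM in the metastatic lines and rose by 2.30 (SE 0.28, adjusted p = 0.0107). Ndrg1, a stress gene, rose by 3.10 (SE 0.54, adjusted p = 0.026; adjusted p = 0.073 without line 384), while the glycolytic enzymes Hk1 and Tpi1 fell by 1.59 (SE 0.23, adjusted p = 0.0151; adjusted p = 0.0518 without line 387) and 1.17 (SE 0.18, adjusted p = 0.0159; adjusted p = 0.0537 without line 387). Pfkm, the muscle form of phosphofructokinase, fell by 1.91 (SE 0.43, adjusted p = 0.0354; adjusted p = 0.0597 without line 384 and 0.102 without line 387). Of 20 genes of the unfolded protein response, the primary value lay below all 3 metastatic lines for 15 (75.0%, against 37.5% of all genes). By the test 1 rose (5.00%, against 8.39% of all genes), and without lines 384, 386 and 387 in turn 1, 10 and 1 rose. Xbp1, a transcription factor of that response, stood at 107 CPM in the primary line and 387, 317 and 339 CPM in the metastatic lines and rose by 1.70 (SE 0.20, adjusted p = 0.0104). Hspa5, the chaperone BiP, stood at 1417 CPM in the primary line and 5067, 2193 and 4285 CPM in the metastatic lines, above the primary line in all 3, with line 386 nearest to it, and did not pass with all lines (adjusted p = 0.116 with all lines and 0.00451 without line 386).

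Of 29 lysosome and autophagy genes 7 rose (24.1%, against 8.39% of all genes) and 1 fell (3.45% against 7.88%), with a median log2 ratio of 0.64, and without lines 384, 386 and 387 in turn 4, 12 and 1 rose and 0, 2 and 0 fell. Sqstm1, the autophagy receptor p62, stood at 157 CPM in the primary line and 995, 759 and 1113 CPM in the metastatic lines and rose by 2.61 (SE 0.29, adjusted p = 0.0104). Ctsl, a cathepsin, stood at 597 CPM in the primary line and 1324, 1224 and 1321 CPM in the metastatic lines and rose by 1.11 (SE 0.18, adjusted p = 0.0179; adjusted p = 0.0678 without line 387). The metastatic lines were close to each other in both genes. Cd68, a lysosomal protein abundant in macrophages, stood at 85.6 CPM in the primary line and 146, 129 and 131 CPM in the metastatic lines (adjusted p = 0.0523 with all lines and 0.032 without line 386). Of the other immune markers Cd14 stood at 7.99 CPM against 3.73, 5.90 and 5.51 CPM, lower in all 3 lines, and Cd74 had 0 counts in the primary library and 17, 2 and 32 in the metastatic libraries, and the part of immune cells in these values was not tested.

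The metastatic lines differed among themselves in interferon genes. The median log2 ratio of 26 measured interferon-response genes to the primary line was 1.05 in line 384, 0.23 in line 386 and -0.62 in line 387. Isg15, a ubiquitin-like interferon-induced protein, stood at 7.35 CPM in the primary line and 35.3, 14.8 and 3.80 CPM in the metastatic lines, and Usp18, which removes it, at 8.64 CPM in the primary line and 66.0, 20.4 and 3.86 CPM in the metastatic lines. In both, line 384 was highest, line 386 next and line 387 below the primary line. Of the 26 members 3 were set apart with lower levels (11.5%, against 7.25% of all genes) and 0 with higher (against 5.69%). By the test 1 fell (3.85%, against 7.88% of all genes) and 0 rose (against 8.39%). The member that fell was Ifit2, by 3.25 (SE 0.56, adjusted p = 0.0209; adjusted p = 0.0551 without line 387). Without lines 384, 386 and 387 in turn 0, 1 and 0 members rose and 1, 2 and 0 fell. Parp14 and Dtx3l, also members of the list, were below the primary line in all 3 without passing. Parp14 stood at 2.74 CPM against 0.878, 0.197 and 0.908 CPM and Dtx3l at 2.99 CPM against 1.39, 1.25 and 0.568 CPM. Of 11 measured genes of class I antigen presentation 3 rose (27.3%, against 8.39% of all genes) and 1 fell (9.09%, near the 7.88% of all genes), while without lines 384, 386 and 387 in turn 2, 5 and 0 rose and 0, 1 and 0 fell. H2-K1, a class I heavy chain that may share reads with H2-D1, stood at 92.3 CPM in the primary line and 454, 286 and 374 CPM in the metastatic lines and rose by 2.01 (SE 0.30, adjusted p = 0.0172; adjusted p = 0.0592 without line 387). Tapbpl, a peptide editor of class I molecules, rose by 1.65 (SE 0.38, adjusted p = 0.0381; adjusted p = 0.0689 without line 384 and 0.1 without line 387). Line 384 was the highest for both.

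In other genes 1 metastatic line differed while the others stayed within 1.5-fold of the primary line, and none of those named here passed the test. In line 384 these included Igtp, an interferon-induced GTPase, at 3.87 CPM in the primary line and 18.9, 5.44 and 3.35 CPM in the metastatic lines, and Bst2, tetherin, at 10.3 CPM in the primary line and 32.3, 8.32 and 11.9 CPM in the metastatic lines. In line 386 they included Hoxb2, a homeobox gene, at 14.7 CPM in the primary line and 13.4, 0.918 and 9.82 CPM in the metastatic lines, and the neighbouring transcript Hoxb3os, an antisense transcript whose reads may not be separable from those of Hoxb3, at 8.72 CPM in the primary line and 8.35, 0.328 and 5.90 CPM in the metastatic lines. Both were lowest in line 386. Efnb2, an ephrin, stood at 7.83 CPM in the primary line and 11.4, 28.8 and 11.6 CPM in the metastatic lines and was highest in line 386. In line 387, Itga2, an integrin chain, stood at 3.47 CPM in the primary line and 3.44, 4.98 and 23.2 CPM in the metastatic lines and Moxd1, a monooxygenase-like protein, at 18.0 CPM in the primary line and 20.7, 16.6 and 73.0 CPM in the metastatic lines, both highest in that line.

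Differences in genes of oxidative phosphorylation and of ribosomal proteins were small in size. No member of either list was set apart, among 25 and 26 measured, and their median log2 ratios were 0.24 and 0.33. By the same test 3 oxidative phosphorylation genes rose (12%, against 8.39% of all genes) and 4 fell (16.0% against 7.88%), and 6 ribosomal protein genes rose (23.1%) and 1 fell (3.85%), but none of these passed without line 387, while without line 384 only 2 ribosomal protein genes rose, and without line 386, 5 and 8 rose and 5 and 1 fell. Atp5b, a subunit of ATP synthase, fell by 0.81 (SE 0.16, adjusted p = 0.026; adjusted p = 0.0776 without line 384 and 0.0888 without line 387), and Rpl13 rose by 0.80 (SE 0.19, adjusted p = 0.0387; adjusted p = 0.0932 without line 384 and 0.0826 without line 387). Rpl13 did not pass with upper-quartile scaling or total counts. Atp5a1, another subunit, stood at 879.7 CPM in the primary line and 846, 859 and 976 CPM in the metastatic lines and overlapped. Whole chromosomes moved little: relative to all genes, the median log2 ratio of a chromosome other than Y lay between -0.22 and 0.27 in every line. On chromosome 17, which holds the class I genes, Crb3 and Acat2, it was 0.13, 0.12 and 0.23, and on chromosome 16 it was -0.14, -0.20 and -0.20.

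**Figure D4:**
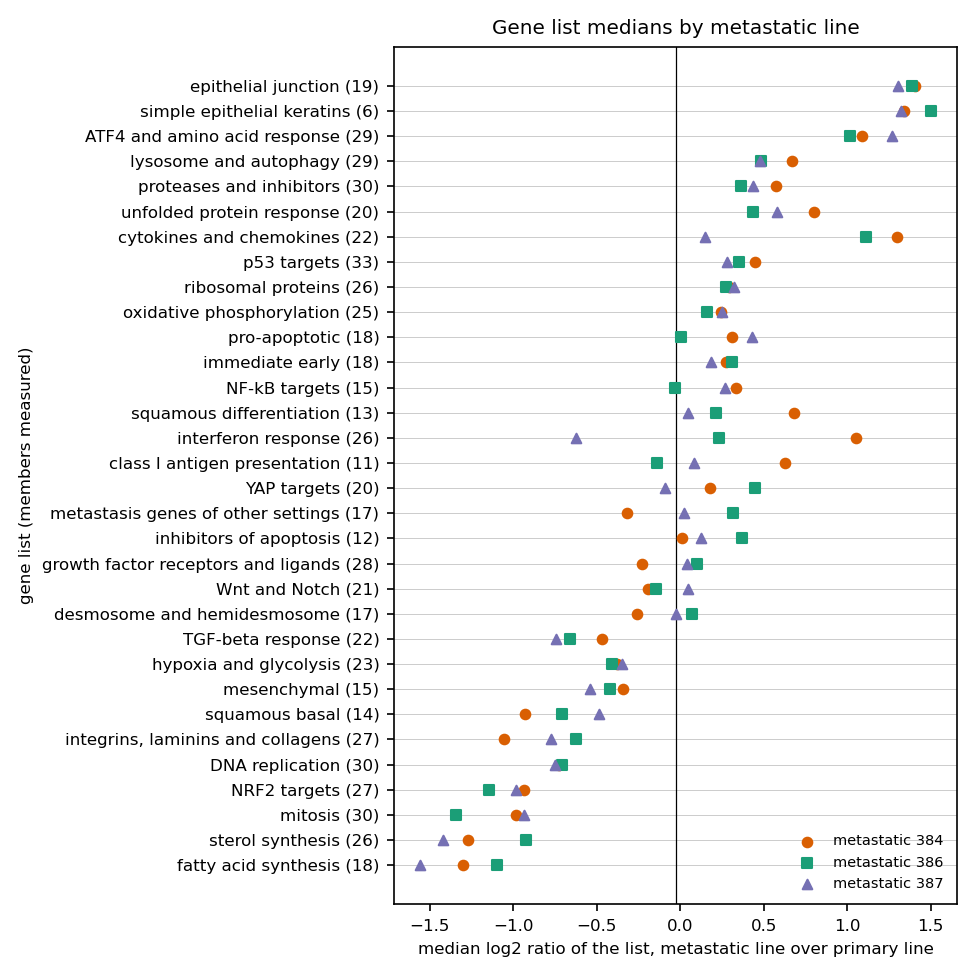
Median log2 ratio of each metastatic line to the primary line (x axis) for 32 gene lists, ordered by the median of the mean ratio, with the number of measured members in parentheses and 1 marker per line; the vertical line marks the median of all genes. The 3 lines lie close together for the replication, ATF4 and junction lists and spread from 1.05 to -0.62 for the interferon list.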

How the data were processed

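RNA was turned into cDNA with a SMART-Seq v4 kit, per the labels' protocols, a method that does not mark the strand. The authors deposited raw read counts per gene for 10 libraries, with 12806 named genes and 18 rows without a name (0.332 to 0.491% of counts), which were left out. Tools listed in the submitters' processing notes are STAR 2.5, Cufflinks 2.2.1 and DESeq2, with the build mm9. Tool roles, annotation and strandedness were not given in the sources used here.

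For the comparison, the 4 shTrp53 libraries were scaled with TMM, and the 11712 genes with a mean of at least 1 CPM were tested with edgeR's quasi-likelihood test (edgeR 4.0.16, R 4.3.3, robust, Benjamini-Hochberg adjustment over all of them), which had 2 residual degrees of freedom per gene. P-values rest on the spread among the 3 metastatic lines, drawn toward that of other genes (median of 4.28 prior degrees of freedom). They hold no estimate of the spread of the primary line. The scripts were tested on simulated data. Log2 ratios used a prior count of 2. A fold against a library at 0 used a floor of 3 counts, and this floor covers counting error only. Depth was between 11057049 and 18431216 counts per library. Alternatives were other scalings, filters, prior counts and limits, each line left out, DESeq2 1.42.0 and limma 3.58.1 voom.

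Names were matched to a RefSeq table of GRCm38.p6 (12765 by symbol, 29 by synonym, 12 unmatched), a build other than that of the counts, which was used for names, chromosomes and promoter sequences only. The comparison and the gene lists were chosen with earlier results of these data known. Genes named by rule were Trp53 and Birc5, the 12 set-apart genes each way with the largest nearest-line ratio among those past the edgeR threshold with a mean of at least 5 CPM, up to 4 set-apart members of each list (or its 2 most abundant members), and 3 genes each way that set 1 line apart.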

Additional observations from a re-analysis of the deposited data

How the results depend on the processing

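Of the results on all genes, the number that rose (983) became 605 with total counts, 1546 with the DESeq2 Wald test and 182 when tested against a 1.5-fold change, and ranged from 143 to 1617 when 1 line was left out. The number that fell (923) became 1560, 1055 and 206 under the same settings and ranged from 134 to 1454. The genes set apart with higher levels (666) became 1592 with a nearest line at least 1.5-fold away and 1058 with a mean log2 ratio of at least 1, and those with lower levels (849) became 1842 and 1472, 1315 with total counts and 563 with a mean of at least 5 CPM. Of 96 list medians under the other scalings, 68 stayed within the spread of the lines, 25 moved and 3 reversed, all 3 with total counts: pro-apoptotic genes at -0.00141, immediate early genes at -0.00402 and NF-kB targets at -0.0171. That scaling moved the median of all genes by -0.22. Relative to all genes these 3 medians stood at 0.243, 0.241 and 0.228 with total counts and 0.245, 0.241 and 0.228 in the main setting, and no list median changed sign on this relative scale. Some named genes that had not passed the test changed sign: Atp5a1 turned from a log2 fold change of 0.02 to -0.0756 with upper-quartile scaling, -0.199 with total counts and -0.0139 with at least 5 CPM, and ranged from -0.0410 to 0.0668 when 1 line was left out. The same ranges were -0.0669 to 1.21 for Cxcl1, -0.0258 to 1.09 for Bst2, -0.987 to 0.0551 for Ces2e, -0.433 to 0.151 for Tmigd1, -0.820 to 0.257 for Mlf1 and -0.959 to 0.0562 for Zcchc3. Of 133 named genes 98 passed, and 50 of these passed in all 3 fits without 1 line. Of the 98, 11 did not pass with limma voom, 3 in the DESeq2 Wald test, 3 with total counts, 1 with upper-quartile scaling and 29 against a 1.5-fold change. The cause of the shifts in gene counts and in named genes was not tested, and a fit without a line rests on 1 residual degree of freedom. No paired analysis was possible because the primary group has 1 library and line numbers are not shared. With 1 primary library, its own spread is unknown.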

Other observations

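The aminoacyl-tRNA synthetases, which charge tRNAs with amino acids, were read as whole families after the values were seen. Of 20 measured cytosolic synthetases 9 rose and 2 fell, against 8.39% and 7.88% of all genes, 5 were set apart with higher levels and 1 with lower, against 5.69% and 7.25%, and the median log2 ratio was 0.70. Aars, Gars, Nars, Sars and Wars are also members of the ATF4 list, so the family is not separate from it. Without lines 384, 386 and 387 in turn, 8, 11 and 3 rose and 1, 2 and 0 fell. Yars, for tyrosine, stood at 123 CPM in the primary line and 610.0, 507 and 581 CPM in the metastatic lines and rose by 2.21 log2 units (SE 0.21, adjusted p = 0.00976). Rars, for arginine, stood at 264 CPM in the primary line and 879, 879 and 955 CPM in the metastatic lines and rose by 1.78 (SE 0.18, adjusted p = 0.0104). Not all moved this way: Mars, for methionine, and Qars, for glutamine, overlapped or lay close, at 224 CPM against 212, 225 and 215 CPM and 47.9 CPM against 42.0, 43.8 and 39.5 CPM. Vars, for valine, fell by 1.37 (SE 0.24, adjusted p = 0.0213; adjusted p = 0.0564 without line 387). Of 17 measured mitochondrial synthetases 0 rose and 1 fell, with a median of -0.20. The share that fell is near the 7.88% of all genes, and the difference between the families was not tested.

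All 4 measured Id genes, inhibitors of basic helix-loop-helix factors, were set apart with lower levels (against 7.25% of all genes), and 3 fell (against 7.88%). In fits of fewer lines 3, 4 and 1 passed without lines 384, 386 and 387 in turn. Id4 stood at 679 CPM in the primary line and 26.5, 60.0 and 38.8 CPM in the metastatic lines and fell by 4.02 (SE 0.40, adjusted p = 0.0104; adjusted p = 0.0513 without line 387). Id3 stood at 81.0 CPM in the primary line and 21.7, 5.11 and 12.3 CPM in the metastatic lines, lowest in line 386, and did not pass with all lines (adjusted p = 0.0533 with all lines and 0.00969 without line 386). Of 18 measured glutathione S-transferases 4 fell and 1 rose, against 7.88% and 8.39% of all genes, while without lines 384, 386 and 387 in turn 3, 6 and 4 fell and 1, 2 and 0 rose. Members of 1 cluster did not move alike: Gstm2 stood at 60.0 CPM in the primary line and 9.15, 6.75 and 12.6 CPM in the metastatic lines and fell by 2.65 (SE 0.33, adjusted p = 0.011), while Gstm5 stood at 30.4 CPM against 42.4, 44.0 and 37.7 CPM and did not pass. Reads of these close relatives may be shared.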
